A study of Mus musculus with 3 samples.

Results

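Igfbp2-high Müller glia in S phase made up 1188 of the 24695 retinal cells in the deposited count table, and they were chosen by their own transcripts. A cell belonged to the class when 10000 of its unique molecular identifiers (UMIs, each standing for 1 captured transcript) held at least 5 of Igfbp2 and at least 5 summed over the S phase genes Mcm5, Mcm6, Ung, Ccne1, Ccne2, Hells, Chaf1b and Tcf19. It also had to hold under 10 summed over the G2 genes Top2a, Cdk1, Prc1, Nusap1, Ube2c, Aurkb and Mki67, and under 10 summed over the mitotic genes Cdc20, Ccnb1, Cenpa, Cdkn3, Hmmr, Knstrn and Ccnb2. All cells came from adult mice that carried Yap5SA+/tg, ROSA26R-tdTomato+/tg and Glast-CreERT+/tg. In these mice tamoxifen lets Cre act in cells that express Glast, which switches on the tdTomato reporter and Yap5SA, a form of the transcriptional coactivator YAP that the Hippo kinases cannot restrain. Injury was by NMDA (N-methyl-D-aspartate), an excitotoxin of inner retinal neurons. Cells with tdTomato were sorted 2 days after it, and 3 runs of 10X Chromium 3' sequencing were made from them. Every class described here carries the same alleles, tamoxifen and injury, and no retina without Yap5SA or without NMDA was analysed here. The labels do not say that the runs were separate animals, so p-values measure the spread between runs, which may be technical.

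Müller glia are the radial support cells of the retina. They clear glutamate, recycle retinoid and move water and potassium, and in adult mammals they rarely divide. During S phase a cell copies its genome once: origins loaded with the MCM helicase in G1 are fired, the polymerases copy both strands around the sliding clamp PCNA, and new DNA is wrapped on histones. The E2F factors, held back by Rb proteins and released by cyclin D and cyclin E kinases, switch on many of these genes, while the genes of mitosis are switched on later by the MuvB, B-Myb and FoxM1 complexes. Igfbp2 encodes a secreted protein that binds insulin-like growth factors.

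Each run gave 436, 429 and 323 members, which was 18.2% ± 2.49 (SD, n = 3 runs) of the 6531 cells that passed the Igfbp2 limit. The comparison within runs used the 923 Igfbp2-high cells in which each of the 3 cycle sums was under 1, called non-cycling below (353, 310 and 260 per run). Also compared were 1297 Igfbp2-high cells with a G2 sum of at least 10 and a mitotic sum under 10, called G2 cells, and 76 cells that passed the S phase limits with Igfbp2 under 1 (27, 19 and 30 per run). A further 2422 Igfbp2-high cells had a mitotic sum of at least 10. The G2 and mitotic classes had no limit on the S phase sum. The median member held 19313 UMIs, against 15539 in non-cycling cells, 23273 in G2 cells and 16110 in S phase cells without Igfbp2. In the authors' deposited table of normalized values 93.4% ± 3.79 of the members were kept, against 75.5% ± 2.45 of non-cycling cells and 54.7% ± 2.16 of all cells.

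The label Müller glia was checked against markers. All 33 listed genes of Müller glia had UMIs in the members, at a summed level of 17155 to 19504 counts per 1000000 (CPM) per run, with Glul (glutamine synthetase) at 447 ± 49.6 CPM, Rlbp1 (retinoid binding) at 316 ± 9.76 and Slc1a3 (the glutamate transporter also called Glast) at 502 ± 22.8 (SD, n = 3). Microglia markers summed to 3.32 to 11.2 CPM and astrocyte markers to 61.3 to 82.7 CPM. Rod markers summed to 450 to 727 CPM, endothelium markers to 177 to 189 CPM and amacrine and ganglion cell markers to 113 to 134 CPM. G2 cells were close to the members, with 2 of 1297 holding at least 3 UMIs of the astrocyte markers Pax2, S100b and Gja1. Among non-cycling cells 171 of 923 did, against 6 of 1188 members, and astrocyte markers summed to 397 to 439 CPM and pericyte markers to 330 to 464 CPM in that class. Counts against non-cycling cells are therefore also given without these astrocyte-marker cells where they differ. Most of the pericyte sum in non-cycling cells was Rgs5, at 382 ± 80.5 CPM, which was not among the genes tested once the astrocyte-marker cells were left out. Among S phase cells without Igfbp2, 14 of 76 held at least 3 UMIs of microglia markers, 13 of them in run 1. Pairs of runs shared 83 to 108 cell barcodes, which 24 member cells carried, and no barcode was shared by members of different runs.

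Many S phase genes are known E2F targets, so the sequence around the gene start is printed for 2 genes of the rule and for 2 licensing genes that the rule did not use. RefSeq promoters (build GRCm38.p6, 250 bases before to 50 bases after the gene start, read along the gene) were found for 7 of the 8 S phase genes of the rule. Capitals mark E2F-type matches, which are TTTCCCGC, TTTCGCGC, TTTGCCGC or TTTGGCGC on either strand, and overlapping matches run together. Mcm6 (chr1:128359656-128359955, minus strand) and Mcm3 (chr1:20820263-20820562, minus strand) encode MCM helicase subunits, Hells (chr19:38930740-38931039, plus strand) a chromatin remodeller, and Orc1 (chr4:108579204-108579503, plus strand) the largest subunit of the origin recognition complex.
Mcm6: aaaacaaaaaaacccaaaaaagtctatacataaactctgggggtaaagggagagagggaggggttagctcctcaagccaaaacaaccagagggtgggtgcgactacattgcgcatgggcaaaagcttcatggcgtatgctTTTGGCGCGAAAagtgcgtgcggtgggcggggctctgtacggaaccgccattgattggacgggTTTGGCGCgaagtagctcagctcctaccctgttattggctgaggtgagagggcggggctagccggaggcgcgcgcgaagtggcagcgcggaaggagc
Hells: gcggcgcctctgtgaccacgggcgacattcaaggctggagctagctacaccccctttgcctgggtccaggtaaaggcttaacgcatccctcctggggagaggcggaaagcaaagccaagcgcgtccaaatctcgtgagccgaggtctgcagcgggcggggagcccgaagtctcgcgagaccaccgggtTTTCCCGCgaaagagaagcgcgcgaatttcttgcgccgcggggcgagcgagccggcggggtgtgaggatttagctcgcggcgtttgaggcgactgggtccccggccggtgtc
Mcm3: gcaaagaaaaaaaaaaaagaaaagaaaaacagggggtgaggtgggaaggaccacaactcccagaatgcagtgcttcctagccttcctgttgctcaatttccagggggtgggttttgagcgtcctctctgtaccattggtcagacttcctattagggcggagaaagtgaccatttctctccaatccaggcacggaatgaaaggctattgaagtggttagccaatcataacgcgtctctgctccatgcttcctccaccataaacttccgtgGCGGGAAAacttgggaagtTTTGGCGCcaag
Orc1: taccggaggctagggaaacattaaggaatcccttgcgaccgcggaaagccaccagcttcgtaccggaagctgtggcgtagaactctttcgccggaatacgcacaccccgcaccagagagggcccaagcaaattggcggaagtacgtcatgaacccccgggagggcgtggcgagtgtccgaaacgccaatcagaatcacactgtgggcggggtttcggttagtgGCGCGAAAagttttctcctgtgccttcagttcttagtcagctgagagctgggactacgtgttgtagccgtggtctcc

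The Mcm6 promoter held 3 such matches, the first bases of which lay at -110, -106 and -47 from the gene start, the Mcm3 promoter held 2, at 20 and 39, and the Hells and Orc1 promoters held 1 each, at -62 and -27. Mcm5 held 2 overlapping matches at -153 and -149, and 4 of the 7 rule promoters held none in this window. Of 13 licensing genes with a promoter 8 held a match, against 704 of all 27025 genes with a promoter (2.60%), counting a gene with several promoters once. Licensing had the highest share of the replication lists. The other lists ranged from 5 of 10 polymerase and primase genes through 2 of 9 firing genes to 1 of 22 nucleotide supply genes (4.55%). The share was 95 of 672 (14.1%) among tested genes higher in the members by a log2 change of at least 1, 15 of 591 (2.54%) among those lower by as much, and 431 of 8829 (4.88%) among all genes tested against non-cycling cells. Mitotic genes outside the rule showed another pattern: 3 of 40 genes held an E2F-type match, and 27 of 40 held the letters TTTGAA of the cell cycle genes homology region on either strand. Those letters were held by 20.2% of all genes with a promoter and by 13.5% of genes tested against non-cycling cells. Promoters of the Müller glia list held no E2F-type match in 22. These are matches of letters and not measured sites.

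The genes of the rule describe the class and carry no test. Tcf19, Mcm6, Mcm5 and Hells made up 18.7%, 18.6%, 15.6% and 15.5% of the S phase sum, and the cyclin E genes Ccne1 and Ccne2 made up 7.63% and 4.49%. Ung, which removes uracil from new DNA, stood at 112, 93.6 and 92.7 CPM in runs 1 to 3 of the members, at 1.64, 1.54 and 1.07 CPM in non-cycling cells and at 18.7, 13.3 and 11.8 CPM in G2 cells. Ccne2 stood at 43.0 ± 1.28 CPM in members, 19.96 ± 2.25 in G2 cells and 3.23 ± 0.263 in mitotic cells (SD, n = 3). Mcm5 differed less between the stages, at 150 ± 21.8 CPM in members, 124 ± 10.6 in G2 cells and 99.0 ± 4.01 in mitotic cells, with run 3 of the members inside the range of the G2 runs. Igfbp2 itself lay at 3796, 2779 and 2824 CPM in the members and at 3411, 2808 and 3220 CPM in the non-cycling class, and these runs overlapped. Just inside the S phase limit (a sum of 5 to under 6) 145 cells held 120 CPM of Pcna and 197 CPM of Rrm2, and just outside it (4 to under 5) 136 cells held 117 and 220 CPM, so the limit cuts a continuous range. The members with a G2 sum of 9 to under 10 were 97 cells, and 78 cells lay at 10 to under 11.

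**Figure D1:**
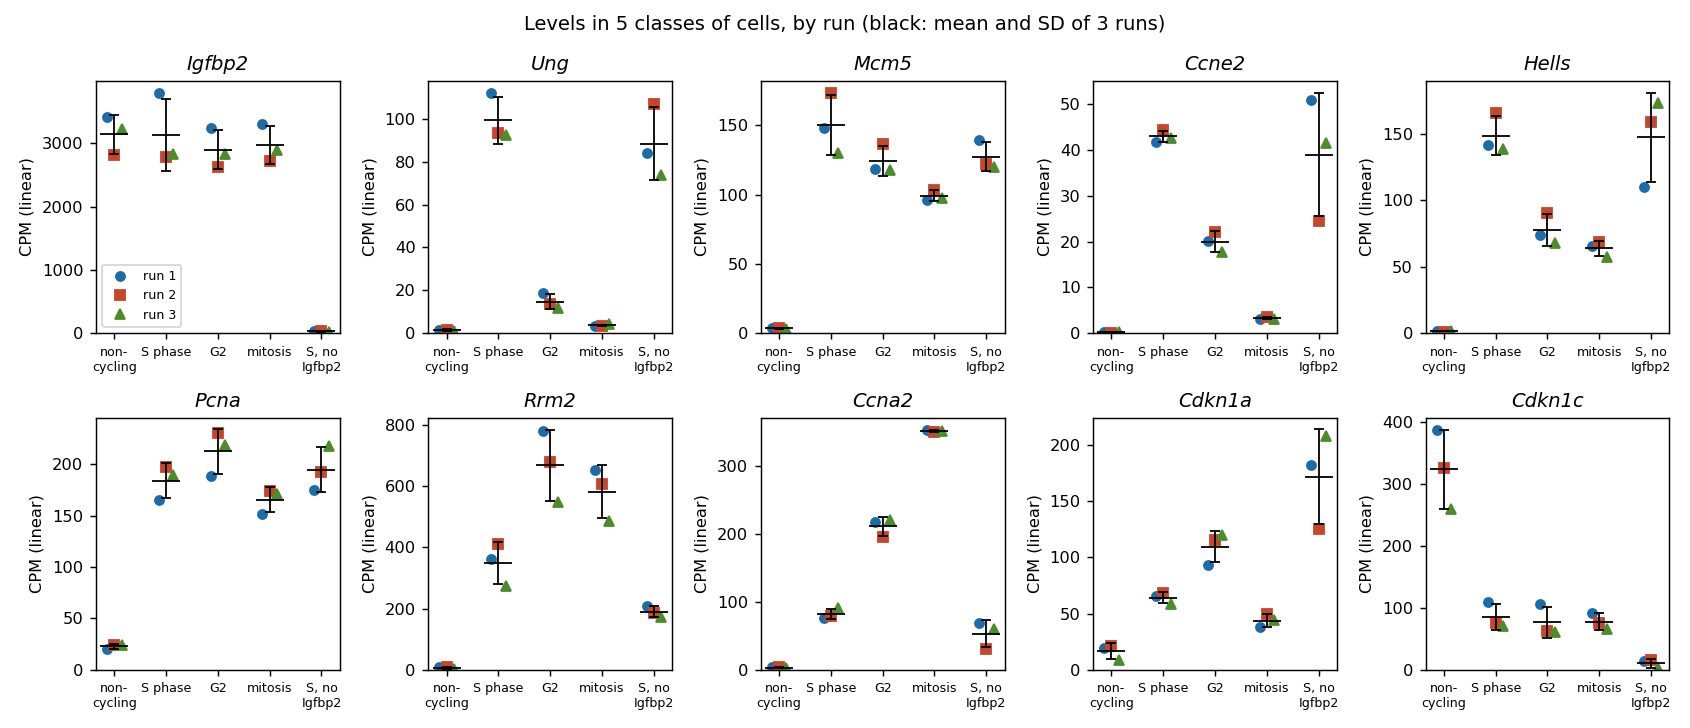
Levels in CPM (linear axes) of 5 genes of the rule (top row) and 5 other genes (bottom row) in non-cycling, S phase, G2 and mitotic Igfbp2-high cells and in S phase cells without Igfbp2; coloured points are runs, black bars the mean and SD of 3 runs. Ung and Ccne2 peak in the S phase classes, Rrm2 and Ccna2 are higher in G2 cells, and Cdkn1c is highest in non-cycling cells, at 259 to 387 CPM.

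Against non-cycling Igfbp2-high cells, nearly all of the replication machinery was higher in the members, and so were most genes of mitosis, while Müller glia genes and Cdkn1c were lower. Over 11592 genes tested with edgeR's quasi-likelihood test (UMIs summed per class and run, run as block, Benjamini-Hochberg adjusted p under 0.05), 3160 (27.3%) were higher in the members and 3150 (27.2%) lower, with a median log2 change of -0.03 over all genes. Changes of at least 1 on the log2 scale were 884 genes higher (7.63%) and 790 lower (6.82%). Without the astrocyte-marker cells 11340 genes were tested, of which 2935 (25.9%) were higher and 2887 (25.5%) lower, and changes of at least 1 were 891 (7.86%) and 433 (3.82%). Of the 3160 higher genes 2752 were also called higher without those cells, and of the 3150 lower genes 2442 were also called lower. The call rate over all genes is the background for every count of list members below. Both classes were set by cycle transcripts of these same cells, so the tests say how steadily other genes differed over the 3 runs.

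Origin licensing, the loading of the MCM helicase in G1, was higher throughout: 15 of 15 listed genes rose, with a median log2 change of 3.51. Mcm3 stood at 130, 139 and 106 CPM in the members of runs 1 to 3 and at 7.56, 6.53 and 4.56 CPM in non-cycling cells, a log2 change of 4.33 (SE 0.109, adjusted p = 1.64e-16). Mcm7 changed by 4.50 and Mcm2 by 3.76, and the runs of the classes lay far apart. Gmnn encodes geminin, which blocks a second round of loading, and it stood at 206 ± 3.76 against 7.24 ± 1.92 CPM (SD, n = 3), a log2 change of 4.81. Cdt1, the loader that geminin blocks, changed by 4.57. Orc1 had 134 UMIs in the members and 0 in non-cycling cells, which made it at least 28.9-fold higher against a floor of 3 counts over the group. Cdc6, the other loader, stood at 38.2, 47.3 and 33.7 CPM against 0, 0.384 and 0.268. The smallest changes were those of Orc3 and Orc4, at 0.44 and 0.41, and Orc4 did not pass without the astrocyte-marker cells, which left 14 of 15.

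Origin firing and DNA synthesis followed the same direction. All 13 listed firing genes rose (median 3.44), among them Gins2 of the helicase complex, at 179 ± 3.80 against 12.1 CPM in non-cycling cells, with a log2 change of 3.88. Of 12 polymerase and primase genes 11 rose (median 3.28), led by Pole, the catalytic subunit of leading-strand polymerase, at 4.73. Pold4, a small accessory subunit of polymerase delta, went the other way, with 32.7, 39.4 and 35.9 CPM in the members and 66.4, 74.5 and 64.1 CPM in non-cycling cells, and fell by 0.90 (SE 0.0844). All 17 genes of the clamp, its loaders and lagging-strand joining rose. Pcna, the sliding clamp, stood at 165, 197 and 189 CPM against 20.2, 24.2 and 23.9 CPM, a log2 change of 3.04 (SE 0.0786, adjusted p = 2.22e-16). Lig1, the ligase that seals Okazaki fragments, changed by 4.28. 2810417H13Rik, the older symbol of the PCNA-associated factor Pclaf, changed by 6.94, from a non-cycling mean of 3.16 ± 1.58 to 409 ± 21.7 CPM (SD, n = 3).

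Supply genes for DNA building blocks all rose, 23 of 23 with a median of 1.73 (22 of 23 without astrocyte-marker cells, where Samhd1 did not pass). Rrm2, the regulated subunit of ribonucleotide reductase, stood at 363, 411 and 275 CPM in the members and at 7.72, 7.49 and 3.22 CPM in non-cycling cells, a log2 change of 5.81 (SE 0.104). Its constant partner Rrm1 changed by 3.09, Tk1 (thymidine kinase) by 5.89 and Tyms (thymidylate synthase) by 3.43. Purine and one-carbon genes changed less, with Paics at 0.95, Gart at 1.12 and Mthfd2 at 2.61. Samhd1, which breaks down deoxynucleotides, changed by 0.34, the smallest value of this list.

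All 24 genes for chromatin assembly and for copying DNA methylation rose (median 2.302). Uhrf1, which brings the methyltransferase to newly copied DNA, stood at 83.1, 82.3 and 86.7 CPM against 2.96, 2.50 and 2.41 CPM, a log2 change of 4.99, and the methyltransferase Dnmt1 changed by 2.87. Asf1b, a histone chaperone, changed by 5.54 and its paralog Asf1a by 0.76. H2afz, a histone variant gene, rose from 390 ± 14.3 to 2248 ± 132 CPM (SD, n = 3), and Slbp, whose protein binds histone mRNA, changed by 2.79. The histone cluster genes divided. Of 14 tested 7 rose and 5 fell, among them Hist1h1b (5.26) and Hist1h2ap (5.26) upward, and Hist1h2bc (-1.82), Hist3h2a (-1.19) and Hist3h2ba (-1.23) downward. Histone mRNAs of S phase mostly lack a poly(A) tail, which this poly(A) assay needs, and the genes are near-identical copies, so their levels are uncertain. Hist1h2ap ranged from 7.82 CPM in run 2 to 75.4 CPM in run 3 of the members. Without the astrocyte-marker cells 9 histone genes rose and 4 fell, and Hist1h1c moved from -1.37 to -0.26, where it did not pass.

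All 29 tested genes of the replication checkpoint and repair list rose (median 3.45). Clspn, the mediator of the checkpoint kinase, stood at 47.3, 51.0 and 45.7 CPM in members and at 1.48, 0.768 and 0.804 CPM in non-cycling cells, a log2 change of 5.50 (SE 0.193). The kinase Chek1 changed by 4.19, Dtl, a substrate receptor that marks Cdt1 for destruction, by 5.51, and Rpa2, which coats single strands, by 3.45. Of 12 cohesin genes 9 rose, with Esco2, which locks cohesin onto sister strands in S phase, at 6.03 and the core subunit Smc3 at 1.04, while Nipbl, at 56.4 against 55.8 CPM, did not pass.

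Among the E2F and Rb factors 12 of 15 rose and 1 fell, and 11 rose without astrocyte-marker cells. E2f1, an activator, stood at 124, 122 and 131 CPM against 14.6, 12.5 and 11.3 CPM (log2 change 3.30). E2f7, a repressor that is itself an E2F target, changed by 5.14. The pocket protein gene Rbl1 changed by 3.11, whereas Rb1, at 0.20, and Rbl2, at -0.17, did not pass. E2f5, which acts with pocket proteins in resting cells, fell by 0.96. The cyclin D genes differed little from non-cycling cells. Ccnd1 stood at 1118, 1003 and 1064 CPM in the members and at 991, 918 and 881 CPM in non-cycling cells, which passed at 0.21 but gave -0.06 without astrocyte-marker cells and did not pass there. Ccnd3 fell by 0.34, Cdk4 rose by 1.29 and Cdk2 by 2.91.

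The CDK inhibitors split, with 4 of 7 higher and 3 lower, with and without the astrocyte-marker cells. Cdkn1c encodes p57, an inhibitor known from cells that leave the cycle. It stood at 110, 76.1 and 71.4 CPM in the members and at 387, 326 and 259 CPM in non-cycling cells, and no run of either class overlapped the other. Its log2 change was -1.90 (SE 0.0683, adjusted p = 2.00e-14), and -2.19 without astrocyte-marker cells, where the non-cycling mean was 389 ± 61.1 CPM. Cdkn1b (p27) fell by 0.47 and Cdkn2b (p15) by 0.64. Cdkn1a encodes p21, an inhibitor that is also a p53 target. It went the other way, at 65.6, 68.3 and 58.8 CPM in the members against 19.7, 21.3 and 8.84 CPM, a log2 change of 1.95 (SE 0.133, adjusted p = 3.56e-10). Cdkn2c (p18) changed by 2.16, Cdkn2a by 2.70 and Cdkn2d (p19) by 0.84. Other p53 targets and apoptosis genes did not move with Cdkn1a as a list: 4 of 14 were higher and 2 lower (median 0.08). Trp53 itself changed by 0.82 and Phlda3 by 0.69, while Bax stood at 181 against 176 CPM and Mdm2 at 38.5 against 35.0 CPM, and neither passed.

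Genes of mitosis that the rule did not use were mostly higher as well. The rule keeps the 2 sums over 14 of their kind under 10 in the members, but non-cycling cells had both sums under 1. The median G2 and mitotic sums were 4.66 and 0.93 per 10000 UMIs in the members and 0 and 0 in non-cycling cells. A higher level of genes that vary with those 14 was therefore built into the choice of cells. Of 52 tested 48 rose and 2 fell, with a median change of 3.81, and 49 rose without astrocyte-marker cells. Birc5 (survivin) stood at 127, 150 and 162 CPM in members and at 6.24, 4.99 and 3.48 CPM in non-cycling cells, a log2 change of 4.83. Spc24, a kinetochore subunit, changed by 4.50, Ccna2 (cyclin A) by 4.59 and the condensin gene Smc2 by 3.91. Pttg1 (securin) fell by 0.70 and Arl6ip1 by 0.23, and Tubb4b stood at 342 against 362 CPM and did not pass. Spc25, at 242 against 124 CPM, was already well above 0 in non-cycling cells and changed by 1.02.

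**Figure D2:**
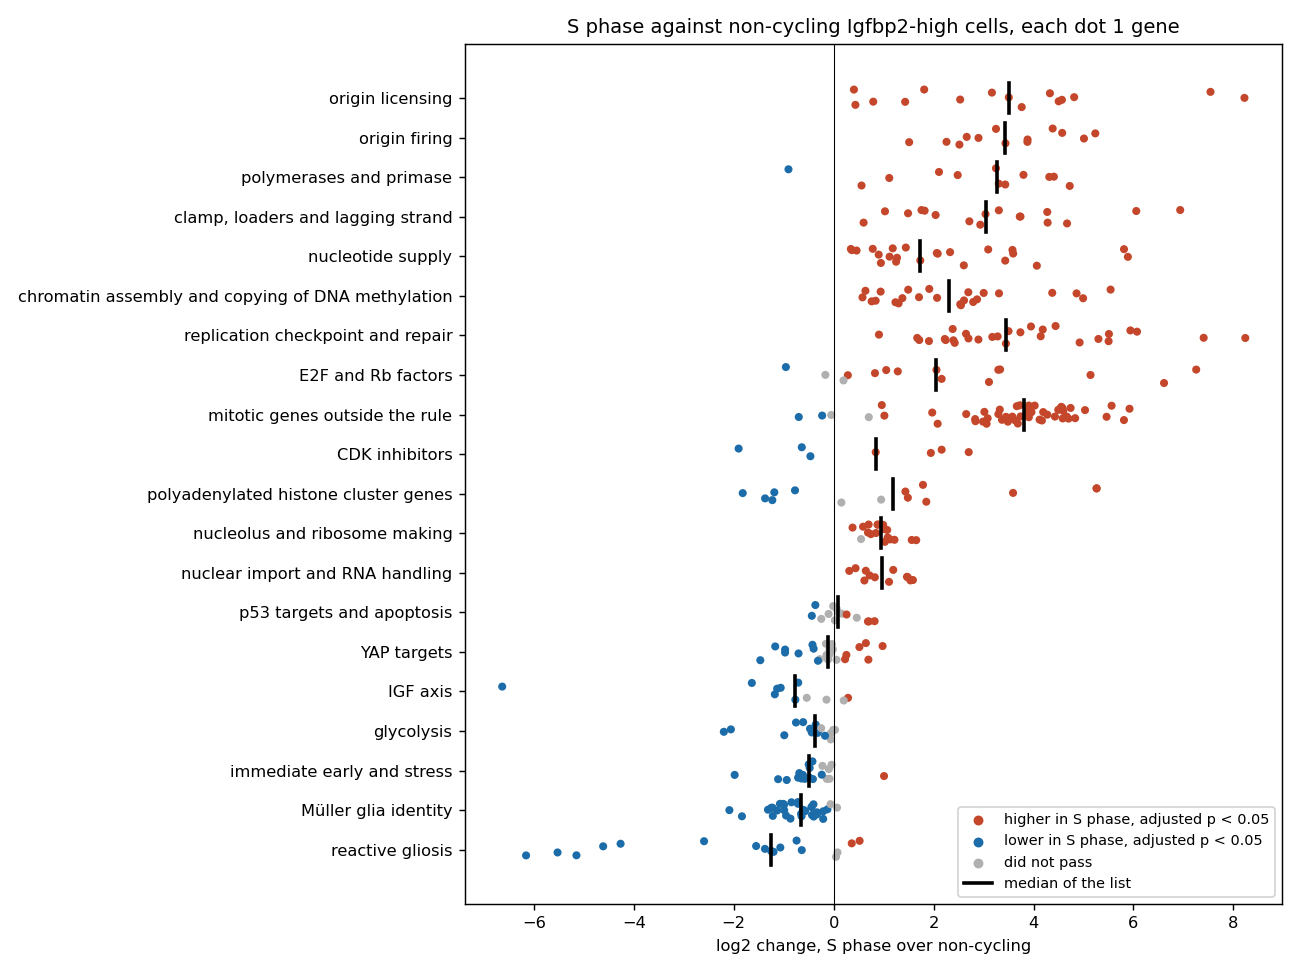
Log2 change of S phase members over non-cycling Igfbp2-high cells for each tested gene (1 dot) of 20 lists, coloured by the edgeR call at an adjusted p under 0.05, with the list median as a black bar; 27.3% of all tested genes were called higher and 27.2% lower. The lists from licensing to checkpoint and repair lie to the right with medians of 1.73 to 3.51, and Müller glia identity and reactive gliosis lie to the left.

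Growth genes rose by smaller amounts. In the nucleolus and ribosome making list 17 of 18 rose (median 0.94), with Npm1 (nucleophosmin) at 1536, 1778 and 1532 CPM against 686, 804 and 633 CPM (log2 change 1.22) and Nolc1 at 1.65. All 12 genes for nuclear import and RNA handling rose (median 0.97), among them Ranbp1 at 1.59 and Hnrnpa1 at 0.62. Glycolysis genes went the other way. Of 18 tested 13 fell, or 12 without astrocyte-marker cells, with Slc2a1, the glucose transporter, at 235, 160 and 156 CPM in members against 419, 335 and 346 CPM (log2 change -0.99) and Aldoa at -0.61. Gapdh stood at 1597 against 1679.5 CPM and did not pass.

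Müller glia genes were lower in the members, and so were rod markers. Of 33 tested 31 fell, with a median of -0.65, and 29 fell without astrocyte-marker cells, with a median of -0.74. Rlbp1 stood at 307, 327 and 315 CPM in the members and at 754, 601 and 686 CPM in non-cycling cells, and the classes did not overlap. It fell by 1.08 (SE 0.0658, adjusted p = 6.79e-11), and by 1.28 without the astrocyte-marker cells. Apoe, a lipid carrier, stood at 1138, 1192 and 1036 CPM against 2809, 2445 and 2743 CPM and fell by 1.22. Crym, a thyroid hormone binding protein gene, fell by 0.99, and by 1.25 without astrocyte-marker cells. Prdx6, a peroxide-clearing enzyme gene, fell by 0.38 and Dbi by 1.31. Vim (vimentin) stood at 4475 ± 502 against 4944 ± 150 CPM and passed at -0.13, but not without astrocyte-marker cells. Lhx2 and Nfib, at -0.06 and 0.07, did not pass, and Lhx2 passed at -0.26 without those cells. Rod markers fell in 8 of 10 (median -0.34), and in 10 of 10 without astrocyte-marker cells (median -0.58). The median share of mitochondrial UMIs per cell was 3.13%, 3.04% and 3.71% in the members of runs 1 to 3 and 4.21%, 4.16% and 4.79% in non-cycling cells. The part of rod RNA and of RNA quality in the Müller glia result was not tested.

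Most gliosis genes were lower in the members, by less once astrocyte-marker cells were left out. Of 17 tested 13 fell and 2 rose in the full comparison (median -1.25), and 11 of 15 fell without those cells (median -0.83). Gfap, the astrocyte filament that reactive Müller glia also make, stood at 65.3, 43.0 and 34.1 CPM in the members and at 1149, 1099 and 1287 CPM in non-cycling cells (-4.61). Without the astrocyte-marker cells the Gfap levels were 43.7, 35.0 and 21.2 against 172, 130 and 85.7 CPM and the change was -1.96 (SE 0.0792). Serpina3n went from -5.53 to -1.74 and Lcn2, a secreted lipocalin, from -5.15 to -1.66. The second Lcn2 value rested on run 2, where non-cycling cells held 181 CPM against 17.6 in members, and the members were higher in run 1 (24.01 against 18.5 CPM) and in run 3 (7.02 against 4.39 CPM). Cryab, a small heat shock protein gene, stood at 4130, 4079 and 4224 CPM against 6668, 6247 and 6771 CPM and fell by 0.64, and by 0.86 without astrocyte-marker cells. Mt1 (metallothionein) fell by 1.20, within large differences between runs (7345, 3140 and 1366 CPM in the members). Timp1, a protease inhibitor gene, and Nes (nestin) rose by 0.36 and 0.52, and they are named after their values were seen, as the 2 that rose. Whether cells below the marker limit still carry astrocyte RNA was not tested.

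**Figure D3:**
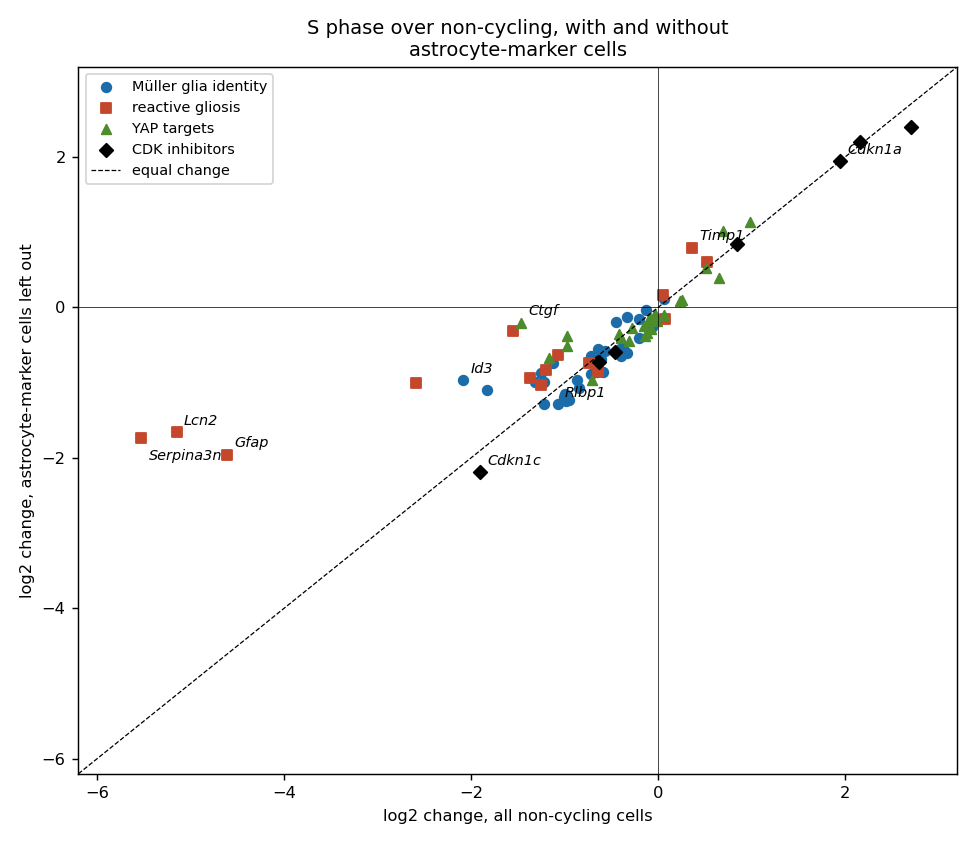
Log2 change of S phase members over non-cycling cells with all non-cycling cells (horizontal axis) and with cells holding at least 3 UMIs of Pax2, S100b and Gja1 left out of both classes (vertical axis), for genes of 4 lists tested in both. Gfap moves from -4.61 to -1.96, whereas Cdkn1c (-1.90 and -2.19) and Cdkn1a (1.95 and 1.94) stay near the dashed line of equal change.

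With the astrocyte-marker cells left out, the 10 largest falls by the naming rule were led by Cdkn1c and Gfap. They also held Mt3, a brain metallothionein gene (-1.68), Wisp2, of the CCN family (-1.44), Dapl1 (-1.42), Trf (transferrin, -1.42), Serping1, an inhibitor of the complement cascade (-1.39), Aldoc, a glycolytic enzyme gene (-1.39), and the stress gene Nupr1 (-1.38). Dapl1 stood at 952, 1072 and 1273 CPM in the members and at 2470, 2781 and 3556 CPM in those non-cycling cells, and each run of the members lay below every run of the others. Hist1h2bc was the fourth at -1.68. In the same comparison the 2 astrocyte markers still tested, Aldh1l1 and Slc14a1, both fell, at a median of -1.34. The part of remaining astrocyte RNA in the 10 falls was not tested.

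YAP targets included higher and lower genes in the members, and more of them were lower once astrocyte-marker cells were left out. Both classes carry Yap5SA by genotype and the same Igfbp2 limit. Of 24 tested 6 were higher and 8 lower (median -0.11), or 4 and 12 without astrocyte-marker cells (median -0.23). Over all genes tested 27.3% were higher and 27.2% lower, or 25.9% and 25.5% without those cells. The YAP target counts of the full comparison lay near these rates. Cyr61, a matricellular target, stood at 1276, 1295 and 1473 CPM in the members against 1337, 1395 and 1738 CPM and did not pass at -0.11, but passed at -0.18 without astrocyte-marker cells. Amotl2, a feedback target, did not pass at -0.14 and passed at -0.39 without astrocyte-marker cells. Ctgf fell by 1.47, from 58.2, 94.1 and 75.0 CPM to 28.5, 31.0 and 19.8 CPM, but changed by -0.20 and did not pass without astrocyte-marker cells. Among Hippo components 3 of 15 were higher and 4 lower in both comparisons, also near the rates over all genes. Tead2, a DNA-binding partner of YAP, changed by 1.12 (59.0, 51.8 and 55.0 against 26.8, 25.0 and 26.0 CPM) and Vgll4, a competitor of YAP for TEAD, by -0.56. In the IGF axis 1 of 11 tested genes was higher and 7 lower (median -0.77), and 1 of 10 was higher and 5 lower without astrocyte-marker cells (median -0.37). Igf1r, the receptor, changed by 0.29, and Igfbp3 by -1.64, or -0.47 without astrocyte-marker cells. Igfbp5, at 440 CPM in non-cycling cells and 4.43 in members, was not tested once those cells were left out.

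Signalling lists had medians below 0 in the full comparison. Without astrocyte-marker cells the median of the chemokine and cytokine list was 0.04. Of 20 immediate early and stress genes 14 fell, or 13 without astrocyte-marker cells, and 1 rose, Fosl1 at 1.01, with Jun at -0.42 (449, 539 and 798 CPM against 553, 748 and 1182) and Atf3 at -1.11. Of 14 Notch and neurogenic genes 9 fell in both comparisons, and 2 rose once astrocyte-marker cells were left out, with Btg2, an antiproliferative gene, at -0.86 and Notch2 at -0.27, while Sox4, at 82.7 against 95.6 CPM, did not pass. Of 16 interferon genes 13 fell and 1 rose (Ifit2, at 0.43, named after its value was seen), or 9 and 1 without astrocyte-marker cells, and Ifit1 fell by 1.99 and by 1.29. Of 8 chemokine and cytokine genes 6 fell in the full comparison, and without astrocyte-marker cells 2 rose, 1 fell and 5 did not pass. Ccl2 gave -0.04 and did not pass in the full comparison, and gave 0.73 without astrocyte-marker cells, at 86.7, 1002 and 180 CPM against 50.05, 726 and 80.7 CPM. Cxcl10 went from -0.37 to 0.77. In the cytoskeleton and matrix list 6 of 23 rose and 10 fell, or 4 and 8 without astrocyte-marker cells, with S100a10 at 0.43, while Actb, at 5420.4 against 5564 CPM, passed only without astrocyte-marker cells (-0.17).

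The members differed widely in their G2 sum, and whether its steps follow the order of S phase was not tested. Split by their G2 sum, which the rule used, 119 cells lay under 1, 514 at 1 to under 5 and 555 at 5 to under 10, and the following levels are a description without a test. Ung stood at 108 ± 6.31, 119 ± 10.8 and 81.1 ± 10.9 CPM in these steps (SD, n = 3), and Mcm2 at 133, 131 and 132 CPM. Mcm7 and Cdt1 increased at each step in every run, with Mcm7 at 102, 148 and 168 CPM and Cdt1 at 73.4, 83.0 and 92.0 CPM. Rrm2 went from 79.0 ± 13.8 to 245 ± 40.9 and 483 ± 97.3 CPM, and every run followed that order. Tk1 (20.2, 54.1 and 115 CPM), Ccna2 (15.7, 54.8 and 117 CPM) and Esco2 (6.54, 29.5 and 70.7 CPM) increased with no overlap of runs between steps. Hist1h1b went from 1.67 to 12.996 and 39.9 CPM, and H2afz from 1253 to 1937 and 2670 CPM. Both cyclin E genes increased in their means, Ccne1 from 34.0 to 54.8 and 95.7 CPM and Ccne2 from 25.0 to 40.3 and 48.9 CPM. Run 2 of Ccne2 did not rise at the last step (45.9 and 45.2 CPM). Igfbp2 stayed at 3153 ± 520, 3127 ± 783 and 3114 ± 397 CPM, and Cdkn1c lay at 126 ± 31.9, 90.2 ± 20.8 and 77.0 ± 28.8 CPM, where the runs overlapped. The median cell held 14929, 18436 and 21105 UMIs in the 3 steps, so depth moved with the split, and its part in the levels was not tested.

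**Figure D4:**
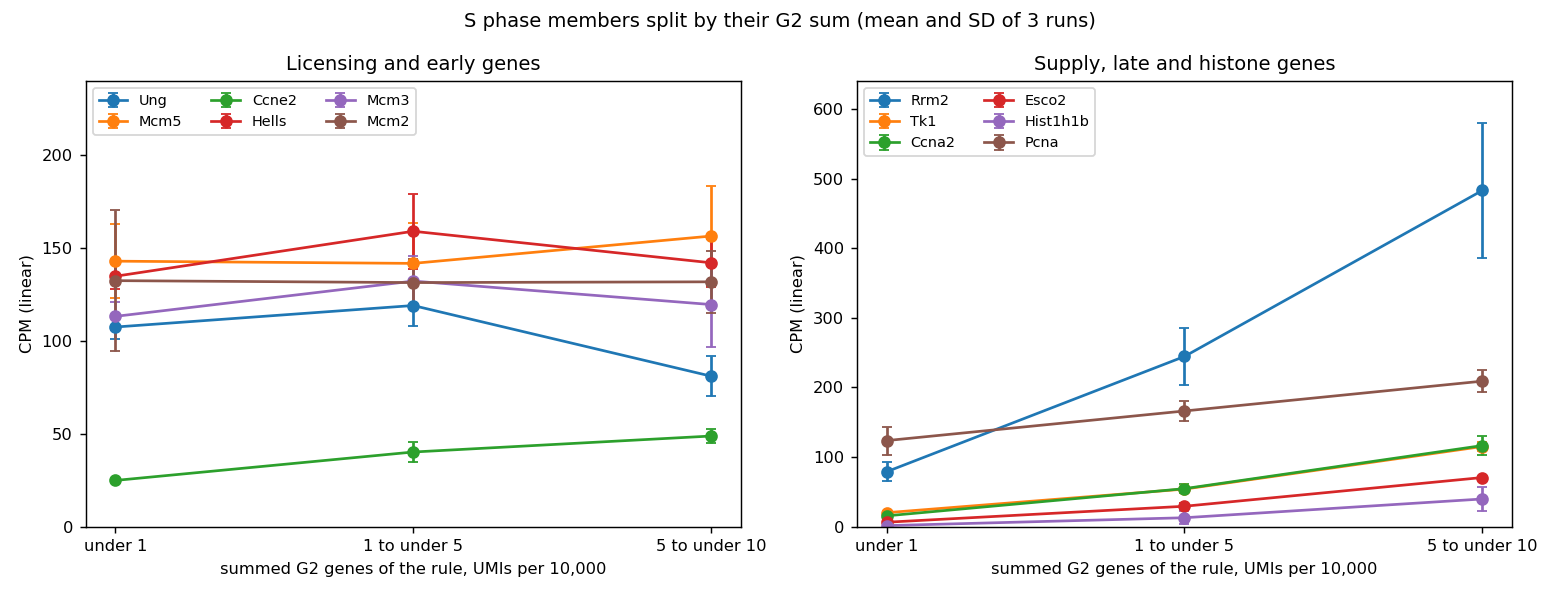
Levels (CPM, linear axes, mean and SD of 3 runs) in members whose G2 genes of the rule summed to under 1, 1 to under 5 and 5 to under 10 per 10000 UMIs. Mcm2 is level in its mean, Ung is lowest in the last step, and Rrm2, Tk1, Ccna2, Esco2 and Hist1h1b increase step by step.

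Against G2 cells with the same Igfbp2 limit, members differed in fewer genes and by smaller amounts. Some licensing genes were higher in the members, and most mitotic and histone genes and 4 of 7 CDK inhibitors were lower. Of 11809 genes tested by edgeR 1304 (11.0%) were higher and 1209 (10.2%) lower, with a median log2 change near 0. The same fit without the run block called 90 and 244 genes, DESeq2 called 410 and 438, and cells thinned to 3500 UMIs gave 281 and 365. Of 15 licensing genes 7 were higher and 8 did not pass (median 0.16), and DESeq2 called 5 higher. Cdc6 stood at 38.2, 47.3 and 33.7 CPM against 23.1, 21.7 and 20.7 CPM, a log2 change of 0.91 (SE 0.0918), and Mcm3 changed by 0.40. Members had to pass the S phase limit, whereas G2 cells had no limit on that sum. The median S phase sum, on the scale of the rule, was 9.28 in members and 7.38 in G2 cells. A higher level of genes that vary with the S phase genes of the rule was therefore favoured by the choice of cells. The part of this choice in the licensing result was not tested. Of 24 chromatin assembly and DNA methylation genes 16 were lower and 4 higher (median -0.24), Uhrf1 among the higher at 0.35. Of 16 E2F and Rb factors 4 were lower and 3 higher, E2f1 among the higher at 0.42. Of 13 firing genes edgeR called 0 higher (1 at an unadjusted p under 0.05, and 0 by DESeq2) and 3 lower, led by Dbf4, an activator of the firing kinase, at -1.17. Nucleotide genes divided: Rrm2 (-0.90) and Tk1 (-0.87) were lower in the members and Shmt1 (0.46) and Ppat (0.29) higher.

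Mitotic genes outside the rule were lower in 51 of 52 (median -1.31), and the exception was Pttg1 at 0.03. The rule put members under the G2 limit and G2 cells above it. A lower level of genes that vary with the G2 genes was therefore built into the choice of cells. The tests here say only how steadily such genes differed over the 3 runs. Plk1, the polo kinase, stood at 8.37, 8.57 and 9.14 CPM in the members against 63.6, 61.7 and 53.7 CPM in G2 cells, and fell by 2.76 (SE 0.0945, adjusted p = 1.15e-13). Cdc25b, the phosphatase that starts mitotic entry, changed by -2.66, Cenpf by -1.96 and Ccna2 by -1.34. Of 16 histone genes 13 were lower and 1 higher, with Hist1h1b at -1.40, Hist1h1e at -1.50 and Hist1h2bc at 0.39. H2afx changed by -1.40 and the linker histone gene H1f0 by -2.03. CDK inhibitors were lower in the members in 4 of 7. Cdkn2d stood at 48.3, 52.3 and 47.5 CPM against 159, 160 and 181 CPM (-1.71), and Cdkn2c (-1.22), Cdkn2a (-0.80) and Cdkn1a (-0.73) were also lower. Cdkn1c was the 1 that was higher, by 0.21.

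Müller glia genes stayed near their G2 level, with 8 of 33 higher, 2 lower and a median of 0.01. Rdh10, a retinol dehydrogenase gene, was higher by 0.51 and Gpr37 by 0.41, and Vim and Dbi, each at 0.02, did not pass. Among the 10 genes most raised over G2 by the naming rule were Inhba, an activin subunit gene, at 74.8, 56.4 and 90.4 against 33.4, 35.2 and 46.8 CPM (0.95), S1pr3, a lipid receptor gene (0.95), Cd24a (0.72), Adamts5, a matrix protease gene (0.61), and Slc2a1 (0.58). Nucleolar genes were higher in 7 of 18 and lower in 1, at a median of 0.21.

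**Figure D5:**
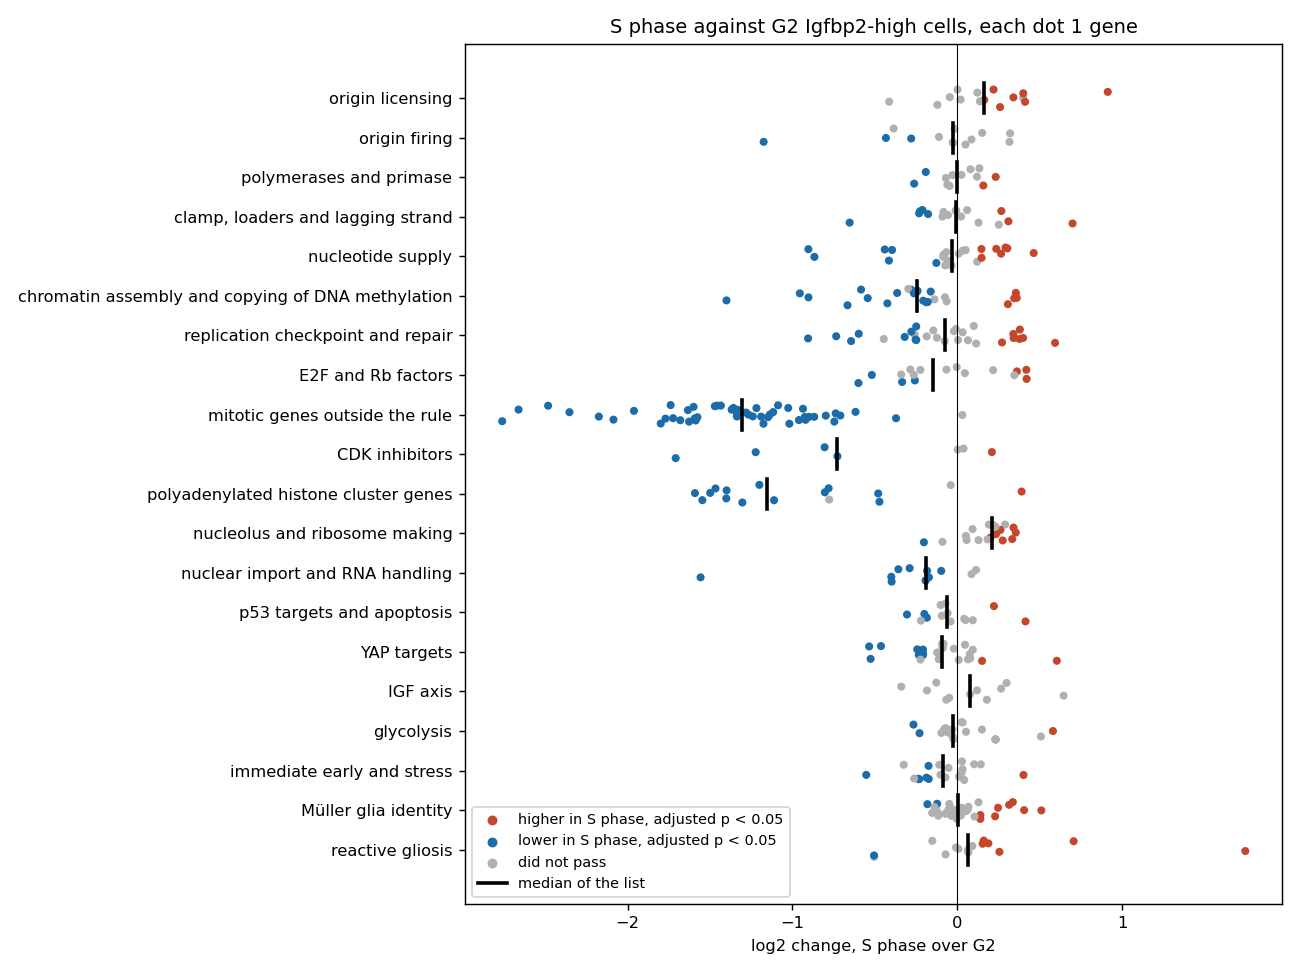
Log2 change of S phase members over G2 Igfbp2-high cells for each tested gene (1 dot) of 20 lists, coloured by the edgeR call, with list medians as black bars; 11.0% of all tested genes were called higher and 10.2% lower. The mitotic list (median -1.31) and the histone list (-1.16) lie to the left and the replication lists lie near 0.

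S phase cells without Igfbp2 were few, 76 cells, and they passed the same S phase limits. Their stage was not matched to that of the members, whose median G2 sum was 4.66 against 2.61 and median S phase sum 9.28 against 7.91 per 10000 UMIs. Of 10338 genes tested 316 (3.06%) were higher in the members and 143 (1.38%) lower. Without the microglia-marker cells 62 cells were left (14, 18 and 30 per run), and of 10438 genes 687 (6.58%) were higher and 404 (3.87%) lower. The values that follow are from this second comparison. With all 76 cells, leaving out run 2 gave 138 and 39 genes and leaving out run 1 gave 409 and 265. Replication genes showed few calls. By edgeR 1 of 15 licensing genes, 0 of 13 firing genes and 0 of 29 checkpoint genes passed, with 2, 2 and 1 at an unadjusted p under 0.05. DESeq2, run with the microglia-marker cells in, called 0 genes of these 3 lists. Pcna stood at 165, 197 and 189 CPM in the members and at 157, 193 and 217 CPM without Igfbp2, and Mcm3 at 131, 139 and 106 against 153, 91.6 and 73.9 CPM, and neither passed. A p that misses the threshold in so few cells does not show equal levels: the change of Pcna was -0.05 with an SE of 0.152. Rrm2 was higher by 0.89, and 8 of 51 mitotic genes were higher (median 0.41), against 0 of 52 with all 76 cells (median 0.26). In those 76 cells 8 of the 52 were higher at an unadjusted p under 0.05 by edgeR, and DESeq2 called 0, with 6 at an unadjusted p under 0.05. The part of the difference in stage in these values was not tested.

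YAP targets were called in 13 of 24, all higher in the members (median 0.82), or 10 of 24 with the microglia-marker cells in (median 1.07). Amotl2 stood at 267, 230 and 333 CPM in the members and at 95.3, 91.6 and 73.9 CPM without Igfbp2, a log2 change of 1.72 (SE 0.177). Cyr61 changed by 0.81 (SE 0.130), Axl, a receptor kinase gene, by 0.81 and Nuak2, a kinase gene, by 3.31, and in none of these did the runs overlap. The cytoskeleton and matrix list had 13 of 23 higher and 1 lower, with Cnn2 (calponin) at 795, 675 and 716 against 90.6, 124 and 37.0 CPM and Tpm1 (tropomyosin) at 2.75. Ccnd1 (0.61), Ccnd2 (1.38) and Cdkn1c (2.95) were also higher, as were Csf1 (2.46) and Igf1r (0.93). Müller glia genes divided, with 9 of 33 higher and 7 lower. Prdx6 changed by 1.49, Crym by -0.87 and Espn by -1.79. The genes lowest in the members by the naming rule included Nupr1 (-2.53), Ndp, the gene of norrin (-2.43), Pold4 (-2.31) and Id1 (-2.24). Nupr1 stood at 223, 193 and 179 CPM against 1306, 674 and 1652 CPM.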

How the data were processed

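UMIs were counted per gene and cell in 3 10X Chromium 3' v2 runs of sorted cells. The deposited counts were made by the authors with Cell Ranger on mm10 and the natural log values with Seurat 2.3.4, per the labels and the submitters' processing notes. The natural log values in the authors' table equalled ln(1 + 10000 × count / total) to within 5.00e-07 for the 13511 cells it holds and were used only to mark those cells. Runs 1 to 3 held 7670, 8802 and 8223 cells, and the shallowest cell held 3538 UMIs.

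UMIs were summed per class and run and scaled by TMM, filtered with filterByExpr and tested with edgeR 4.0.16 quasi-likelihood (R 4.3.3) with the run as block, since both classes came from the same run; deviations of same-numbered profiles correlated at 0.275 to 0.874. The 23 rule genes were left out after scaling. Change is log2 of member over other class, and SE is its size over the square root of F. The method was tested on simulated data. Doublets were not called; leaving out the cells above the 95th percentile of UMIs was an alternative. DESeq2 1.42.0, other scaling, no filter, thinning to 3500 UMIs, stricter limits and each run left out were others. Leaving out astrocyte-marker cells was chosen after seeing the data.

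The members and gene lists were chosen with earlier results of these data known. Genes that could be named were members of the replication, cycle, p53 and histone lists, up to 8 of each other list by level and size, and the 10 largest rises and falls with a change of at least 1 (0.5 where few reach 1) and 50 CPM, in the same direction in every run. The rule was also applied with astrocyte-marker or microglia-marker cells left out. The 3' tags do not cover whole transcripts, so levels are compared within a gene. Promoters came from RefSeq (GRCm38.p6). Some listed genes are not reported here by name.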

Additional observations from a re-analysis of the deposited data

How the results depend on the processing

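Most named genes kept their direction and their side of the threshold: 1593 of 1674 values over 120 genes against non-cycling cells, 439 of 462 over 33 genes against G2 cells and 246 of 273 over 21 genes against S phase cells without Igfbp2. The last of these counts was set against the fit with all 76 cells. Most values given above for that comparison come from the fit without microglia-marker cells, which was among the alternatives. The direction changed for 3 genes against non-cycling cells. Without astrocyte-marker cells Ccnd1 gave -0.057, Ccl2 0.73 and Cxcl10 0.77, and with only the cells in the authors' table they gave -0.079, 0.72 and 0.93, while leaving out 1 run gave -0.33 to 0.35 for Ccl2. DESeq2 called 2056 genes higher and 1693 lower against non-cycling cells, and cells thinned to 3500 UMIs gave 1751 and 1734. Leaving out 1 run gave 2678 to 2876 higher and 2438 to 2747 lower genes. Against G2 cells DESeq2 called 410 and 438, and thinned cells 281 and 365. Without the replicate block, the fit against G2 cells called 90 and 244 genes, and 9 of 33 genes named there no longer passed, as did 11 of 120 against non-cycling cells. Against S phase cells without Igfbp2 the counts were 693 and 561 with no low-count filter, 656 and 358 with only the cells in the authors' table, 687 and 404 without microglia-marker cells, 313 lower genes with thinned cells and 251 lower genes without cells of very high UMIs. Leaving out 1 run gave 138 to 409 higher and 39 to 353 lower genes there. The cause of these differences was not tested. A stricter S phase sum of at least 10 was not run in that comparison, since it left 8, 5 and 11 cells per run. The share of Igfbp2-high cells in the class was 7.47% with that stricter sum, 22.2% among cells in the authors' table and 9.48% with G2 and mitotic sums under 5. With 62 to 76 cells lacking Igfbp2, small changes could not be detected.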
